A study of Homo sapiens and Mus musculus with 16 samples.

Results

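Accessible chromatin was mapped in HPAF-II, a long-established line of human pancreatic adenocarcinoma cells, and compared gene by gene between cells in which the nuclear receptor gene HNF4G had been knocked out by CRISPR (HNF4G-KO) and control (Cas9) cells. The control cells have the WT genotype in the labels and had also received Cas9. The knockout was made with Cas9 protein and guide RNA designed against exons 3 and 4. It was carried as a pool of 3 single-cell clones, which the study's methods describe both as knockouts and as having heterozygotic frameshifts, so that clonal differences and loss of HNF4G cannot be told apart. The assay was ATAC-seq, in which a transposase cuts DNA that nucleosomes leave free, so that open regions collect reads. Of the 16 samples of the series, 8 entered this comparison, 4 of each group, and each group was represented by 1 list of regions for its 4 replicates. No value was held per replicate and the read depth is unknown, so no difference below has a replicate check or a test. Each region was given to the gene with the nearest protein-coding start site within 50 kb, and 17450 of 20007 protein-coding genes received a region from either list. The label pancreatic cancer cells was set beside marker genes. A region lay within 1 kb of a start site for 10 of 12 pancreatic ductal epithelium markers in each list. The number was 2 of 10 for endothelium, 3 of 10 for fibroblasts and 6 of 10 for neurons in each list. Of 12 leukocyte markers 3 had one in the control and 2 in the HNF4G-KO list, and of 12 acinar and islet cell markers 2 and 4. Of all 20007 protein-coding genes 14270 had one in the control and 13904 in the HNF4G-KO list. The ductal count by itself thus says little about cell type. The region lists cannot check the knockout itself.

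HNF4G belongs to the HNF4 group of nuclear receptors, transcription factors that bind DNA as dimers at a repeated half-site and activate genes of liver, gut and pancreas, among them genes of lipid transport, drug metabolism and the brush border. Its close relative HNF4A binds the same sequence and is the better known regulator of hepatocyte and gut epithelial identity. Regions near start sites are mostly promoters, whereas regions farther away include enhancers, where such factors often bind.

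The sequences that bear on the factor are shown first. The HNF4 consensus searched for was CAAAGTCCA, on both strands, and each sequence is a stretch of 129 bases of hg38 with the consensus in capitals in its middle, so that a window may run past the edge of its region. Windows of this length at the center of all 118107 control regions held the consensus in 0.489% of cases. The printed matches could lie anywhere in their regions, and 1.57% of assigned control regions held the consensus anywhere. ARHGAP24, PPP2R2B and MMP7 are shown because the region with the consensus was absent from the HNF4G-KO list. CD36, SCARB1 and SLCO2B1 are shown because theirs was shared and ranked lower in HNF4G-KO, and ATP10B because it ranked higher. These were chosen among the named genes after their values were seen, and a match is a description, not a binding site.
ARHGAP24, chr4:85459838-85459966, minus strand, control-only: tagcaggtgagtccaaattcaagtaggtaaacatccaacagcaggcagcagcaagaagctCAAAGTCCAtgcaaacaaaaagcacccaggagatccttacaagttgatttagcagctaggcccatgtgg
PPP2R2B, chr5:146848262-146848390, plus strand, control-only: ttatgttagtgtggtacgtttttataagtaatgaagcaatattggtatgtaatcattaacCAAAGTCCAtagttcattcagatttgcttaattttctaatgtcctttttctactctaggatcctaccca
MMP7, chr11:102547369-102547497, minus strand, control-only: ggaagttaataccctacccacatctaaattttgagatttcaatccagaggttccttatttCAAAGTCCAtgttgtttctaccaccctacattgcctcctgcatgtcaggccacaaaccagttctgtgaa
CD36, chr7:80324177-80324305, plus strand, shared: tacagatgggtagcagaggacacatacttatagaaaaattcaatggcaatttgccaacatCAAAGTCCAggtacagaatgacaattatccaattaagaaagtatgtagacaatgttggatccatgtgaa
SCARB1, chr12:124885260-124885388, plus strand, shared: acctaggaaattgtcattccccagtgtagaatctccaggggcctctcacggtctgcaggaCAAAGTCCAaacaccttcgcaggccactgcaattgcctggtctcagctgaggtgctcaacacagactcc
SLCO2B1, chr11:75159703-75159831, minus strand, shared: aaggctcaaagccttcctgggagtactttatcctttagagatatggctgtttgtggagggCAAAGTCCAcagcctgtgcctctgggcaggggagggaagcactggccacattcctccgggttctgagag
ATP10B, chr5:160658194-160658322, plus strand, shared: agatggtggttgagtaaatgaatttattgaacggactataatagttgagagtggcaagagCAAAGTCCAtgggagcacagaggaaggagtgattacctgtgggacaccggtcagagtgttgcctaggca

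The ARHGAP24 region stood at percentile 58.0 of the control list by the deposited score, 15.0 kb from the start site, and the PPP2R2B region stood at 14.6, 30.1 kb away. The MMP7 region stood at 20.2. MMP7 encodes a secreted matrix protease. The CD36 region went from percentile 77.9 in the control list to 33.2 in the HNF4G-KO list. CD36 encodes a fatty acid translocase. The SCARB1 region went from 58.4 to 31.8 and the SLCO2B1 region from 76.7 to 56.2. SCARB1 encodes the receptor for high-density lipoprotein and SLCO2B1 an organic anion uptake carrier. The SLCO2B1 region lay at the start site. The ATP10B region went from 69.6 to 74.5.

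Regions were called shared where at least 1 bp overlapped a region of the other list, and otherwise control-only or KO-only. Of 80584 control regions assigned to a gene, 18042 were control-only, a share of 22.4% (Wilson 95% interval 22.1 to 22.7). Of 68121 assigned HNF4G-KO regions, 4271 were KO-only, a share of 6.27% (6.09 to 6.45). Here and below the intervals cover counting error only. Control regions farther than 50 kb from any start site were control-only more often, at 30.5% of 37523. Because weak regions are missing from the other list far more often than strong ones, an expected number was computed for each gene. It sums, over the gene's regions, the control-only share of all control regions in the same of 20 score classes. The assigned control regions together had 0.946 times their expected number, and the assigned KO-only regions 1.00 times.

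Control-only regions were spread over many genes. Of 17262 genes with a control region, 9539 had at least 1 control-only region, which is 55.3%, and of 16807 genes with an HNF4G-KO region, 3481 had at least 1 KO-only region, which is 20.7%. The control list is the longer, and with lists of equal size the counts were 6089 genes, or 36.2%, and 5629 genes, or 33.5%. Both kinds were present at 2350 genes, control-only regions without KO-only regions at 7189, the reverse at 1131 and neither at 6780. The share of genes with a control-only region followed the number of regions, from 14.2% of genes with 1 control region to 99.5% of genes with 20 or more. Genes with 3 or more control-only regions numbered 2092, or 12.1% of genes with a control region, and held 46.1% of control-only regions and 28.9% of control regions. Most genes had too few regions to depart far from expectation, the median gene having 3 control regions. The observed number exceeded the expected one by 3 or more at 34 genes and by 5 or more at 4 genes, and was lower by 3 or more at 48 genes. The KO-only number exceeded its expectation by 3 or more at 8 genes.

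Regions at start sites were absent from the HNF4G-KO list less often than expected from their scores. Within 1 kb of a start site, 10.3% of 18877 control regions were control-only (9.84 to 10.7), against 14.5% expected, a ratio of 0.708. From 1 to 5 kb the share was 26.8%, from 5 to 20 kb 25.1% and from 20 to 50 kb 26.9%, with ratios of 1.03, 0.955 and 1.00. KO-only regions showed no such step. Their ratio was 1.00 within 1 kb, 0.967 from 1 to 5 kb, 1.02 from 5 to 20 kb and 1.00 beyond. Shared regions within 1 kb of a start site had a median change of -0.648 percentile points in HNF4G-KO minus control, against -5.18 to -5.85 in the farther classes. This change depends on where a region starts. Control regions within 1 kb had a median percentile of 73.4, against 46.5 to 47.5 farther away. With the median change of each score class subtracted, the medians were 2.28 within 1 kb and 0.304, -0.391 and -0.709 in the farther classes.

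**Figure D1:**
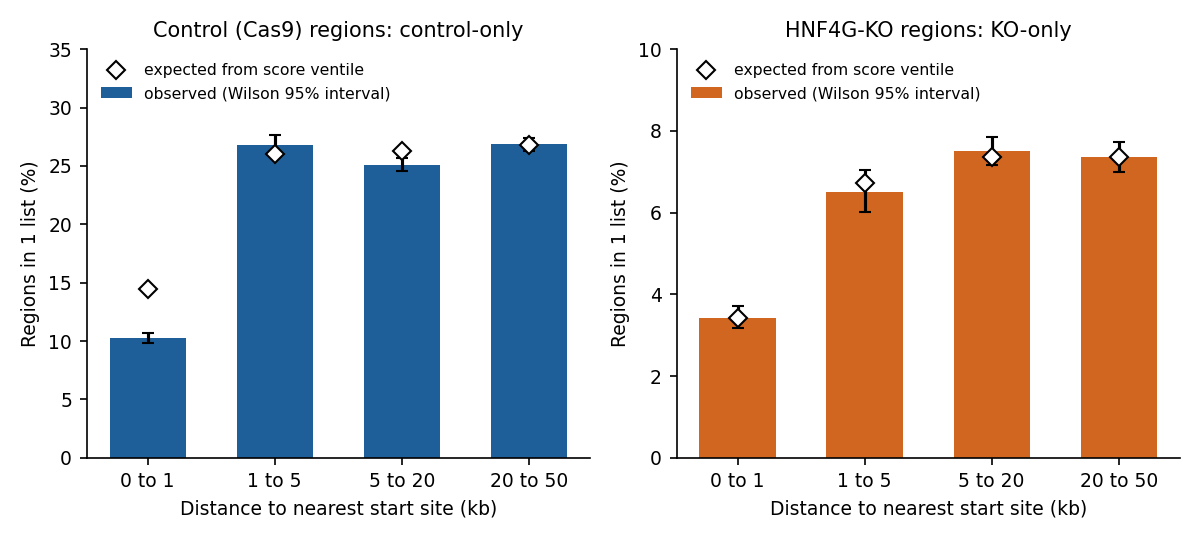
Percentage of control regions that were control-only (left) and of HNF4G-KO regions that were KO-only (right), by distance in kb to the nearest protein-coding start site. Bars are observed shares with Wilson 95% intervals and diamonds are shares expected from score classes. The control-only bar at 0 to 1 kb, 10.3%, lies below its expected 14.5%, while the other bars lie near their diamonds.

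A start-site region, within 1 kb of any start of the gene, was listed for 14270 genes in the control and 13904 genes in the HNF4G-KO list, and 13771 genes had one in both. It was listed in the control only at 499 genes, 3.50% of those with one in the control list, and in HNF4G-KO only at 133. At 459 of the 499 genes the region itself had no counterpart, and these 499 regions were weak, with a median percentile of 16.1 and 41 of them at 50 or above. The 4 genes ranked highest by this rule were PFKFB1, PEG10, SGCE and GNRH2, and at all 4 the highest-scoring region was in fact shared, with its HNF4G-KO counterpart outside the 1 kb limit. For PFKFB1, a kinase-phosphatase that sets the level of a glycolytic activator, the region stood at percentile 97.4 in the control and its counterpart at 96.7 in the HNF4G-KO list. PEG10 and SGCE, neighboring imprinted genes that share a divergent promoter, had the same region, at 94.6 and 93.2. GNRH2, a peptide hormone gene, had 94.3 and 97.5. By nearest start site the regions of PFKFB1, PEG10 and GNRH2 in this ranking were assigned to other genes. The control regions assigned to these genes were shared ones at percentile 59.5 for PFKFB1 and at 34.8 and 59.7 for GNRH2. PEG10 was assigned a single region, over its start site, which was control-only at percentile 8.97. The strongest start-site region with no counterpart, chosen after its value was seen, was that of DDX53 on chromosome X, an RNA helicase gene active mainly in testis, at percentile 88.7. In the other direction RASD2, a small GTPase of the Ras family, had a KO-only start-site region at percentile 62.8, while RASGEF1C, SLC2A2 and LEXM, named by the same rule, had shared ones.

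At 136 genes with 2 or more control regions, of 13937 such genes, every control region was absent from the HNF4G-KO list. These genes had few and weak regions. The number was exactly 2 at 95 of them, and their median region percentile was 16.8, against 52.4 over all genes with 2 or more. At 4 genes 5 or more regions were absent, and apart from HTR1B and COL4A3 they fall outside the rule for named genes. HTR1B, a serotonin receptor gene, had 8 of 8 regions absent, PTGS2, the inducible cyclooxygenase of prostaglandin synthesis, 6 of 6, COL4A3, a basement membrane collagen, 5 of 5 and TTLL8, a tubulin-modifying enzyme, 5 of 5. Expected numbers were 3.41, 2.72, 3.00 and 3.24. The 8 HTR1B regions had control percentiles of 35.5, 16.4, 58.5, 16.1, 26.2, 11.3, 14.6 and 48.4 and lay 0.606 to 29.1 kb from the start site. Most were thus in the weaker part of the control list. The strongest PTGS2 regions stood at 56.5, 21.1 kb from the start site, and at 45.9, over the start site. Around PTGS2, 45.9% of the other control regions within 2.5 Mb were control-only. The PTGS2 promoter, 300 bases of GRCh38.p14 from RefSeq, is printed because the absent region covers it. It held no HNF4 consensus, which 0.384% of 35116 RefSeq promoters of this length did.
PTGS2 promoter, chr1:186680374-186680673, minus strand: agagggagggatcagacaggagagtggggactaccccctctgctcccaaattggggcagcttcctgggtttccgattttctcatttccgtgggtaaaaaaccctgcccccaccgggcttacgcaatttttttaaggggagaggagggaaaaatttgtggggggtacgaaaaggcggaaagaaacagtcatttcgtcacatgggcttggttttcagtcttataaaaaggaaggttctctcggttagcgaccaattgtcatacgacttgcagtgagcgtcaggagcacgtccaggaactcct

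The 8 genes with the largest excess of control-only regions over expectation included genes of phosphoinositide signaling, small GTPase regulation, the cytoskeleton and cell adhesion by their known functions. INPP4B (chr4:142023160-142847432), a phosphoinositide phosphatase that opposes PI3K signaling, had 16 of 32 control regions absent from the HNF4G-KO list, with 8.69 expected. ARHGAP24, which inactivates Rac, had 12 of 28 absent with 5.55 expected. PALLD, an actin-bundling scaffold, had 12 of 25 absent with 6.29 expected. These 3 genes lie on chromosome 4, where 29.6% of all assigned control regions were control-only, and with expectations taken within score class and chromosome their expected numbers were 12.03, 8.17 and 8.56. The regions of these genes that were kept also ranked lower, with median changes of -8.31, -17.7 and -18.8 points. Of the 16 shared ARHGAP24 regions 15 ranked lower, as did 14 of 16 at INPP4B and 11 of 13 at PALLD. None of the 3 genes had a KO-only region. The absent PALLD regions had percentiles of 1.5 to 72.4, and the absent INPP4B regions 8.1 to 54.1.

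CHL1, a neural adhesion molecule of the L1 family, had 9 of 14 control regions absent with 3.74 expected, and 5 regions in the HNF4G-KO list. Of the 23 other control regions within 2.5 Mb of its start site 12, or 52.2%, were control-only. The share was 37.0% around INPP4B, 28.2% around ARHGAP24 and 43.0% around PALLD, and the part of the surroundings in these counts was not tested. HTR1B followed with the 8 regions given above. PPP2R2B, a regulatory subunit of protein phosphatase 2A, had 11 of 17 absent with 6.66 expected, and 1 of 7 HNF4G-KO regions was KO-only. RUNX1, a transcription factor of blood and epithelial development, had 14 of 30 absent with 9.73 expected. Unlike the genes of chromosome 4, its 16 shared regions were lower in 7 cases and had a median change of 1.17. DOCK4, an exchange factor that activates Rac and Rap1, had 8 of 11 absent with 3.79 expected, and 2 of its 5 HNF4G-KO regions were KO-only. These excesses depended on the settings. The excess of observed over expected, 4.21 to 7.31 regions for the 8 genes as reported, was with 1 start site per gene 0.224 for PALLD, 0.374 for RUNX1, 0.452 for CHL1, 0.606 for DOCK4, 1.65 for PPP2R2B, 2.17 for INPP4B, 4.18 for ARHGAP24 and 4.59 for HTR1B. With the upper 50% of each list by score it was 0.198 for DOCK4, 0.450 for HTR1B, 0.931 for INPP4B, 1.52 for CHL1, 2.08 for PALLD and 3.05 for ARHGAP24, and RUNX1 and PPP2R2B were below expectation. Within 10 kb RUNX1 was below expectation and the other 7 genes had an excess of 1.24 to 3.45.

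**Figure D2:**
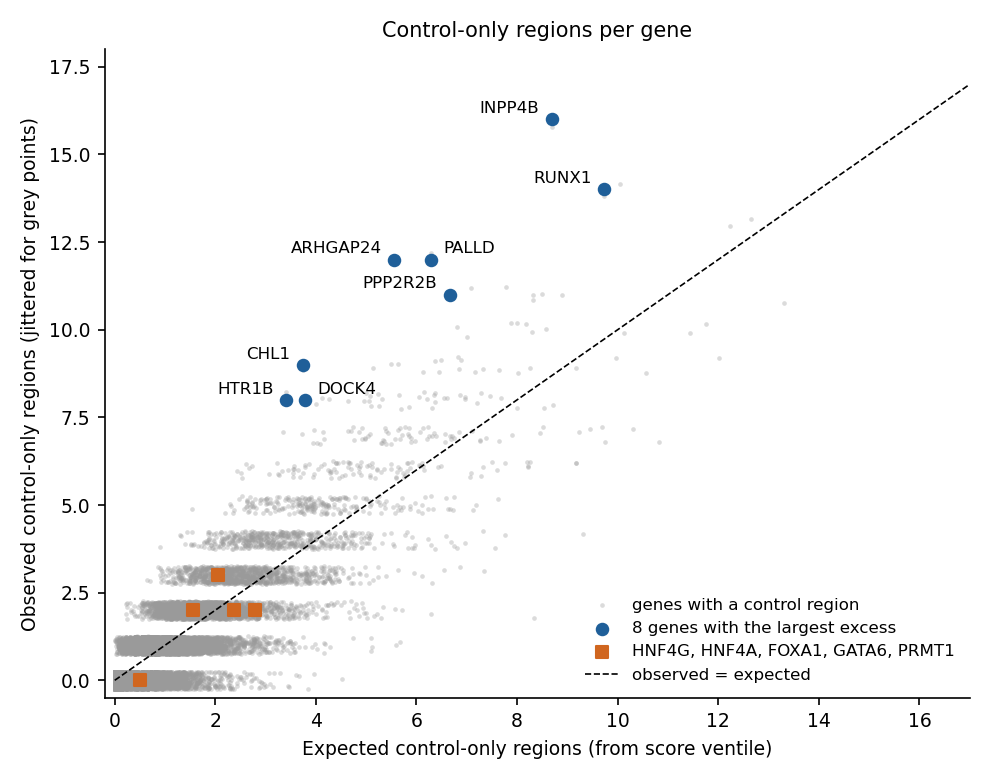
Observed control-only regions of each gene (vertical axis) against the number expected from the score classes of its regions (horizontal axis). Grey points are all genes with a control region, blue circles the 8 genes with the largest excess and orange squares HNF4G, HNF4A, FOXA1, GATA6 and PRMT1. INPP4B, with 16 observed and 8.69 expected, is farthest above the line of equality, and the orange squares lie close to it.

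HNF4G itself, on chromosome 8, had 9 control regions, of which 3 were absent from the HNF4G-KO list with 2.06 expected. The 6 shared regions had a median change of -8.90 points, 4 of them ranking lower, and the region over the start site stood at percentile 82.4 in the control and 82.7 in the HNF4G-KO list. HNF4A had 2 of 12 regions absent with 2.37 expected, and its 10 shared regions had a median change of -4.28, near the -4.65 of all shared regions. FOXA1, a forkhead factor known to open closed chromatin in other tissues, had both of its control regions shared, with a median change of 4.12 and values of -1.30 and 9.54. The study proposes that FOXA1 lacks this opening role in pancreatic cancer. GATA6, a zinc finger factor of endoderm and of the classical tumor subtype, had 2 of 6 absent with 2.79 expected. Its 4 shared regions all ranked lower, by 0.95 points at the start site and by 11.5, 12.2 and 28.1 points at 5.75, 43.7 and 23.3 kb. PRMT1, an arginine methyltransferase that modifies histone H4, had 2 of 5 absent with 1.56 expected. Both absent PRMT1 regions lay within 0.2 kb of a start site. A single HNF4G-KO region at percentile 91.0 overlapped a pair of control regions beside them, at 92.7 and 31.4.

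KO-only regions rarely gathered at 1 gene. Genes with 3 or more numbered 124. FBRSL1 had 5 KO-only regions among 13 with 1.44 expected. TTC7B, part of the complex that anchors a phosphatidylinositol kinase to the plasma membrane, had 5 of 21 with 1.54 expected, and CPNE5, a calcium-dependent phospholipid-binding protein, had 5 of 14 with 1.55 expected. CHMP6, a subunit of the ESCRT-III membrane scission complex, had 4 of 7, B3GALNT2, a glycosyltransferase of dystroglycan, 4 of 8 and ZNF516, a zinc finger protein, 4 of 10. Expected numbers for these were 0.77, 0.81 and 0.93. All of these KO-only regions were weak or middling, the highest being 1 at ZNF516 at percentile 43.6 of the HNF4G-KO list. With the upper 50% of each list by score, 5 of the 6 genes, all but CHMP6, were below expectation, and with 1 start site per gene the excess went from 3.46 to 0.768 for TTC7B, from 3.45 to 0.195 for CPNE5 and from 3.07 to 0.974 for ZNF516. FBRSL1, TTC7B and CPNE5 also had 5, 4 and 5 control-only regions, close to the expected 4.93, 4.22 and 4.33.

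Among shared regions the change in score percentile, HNF4G-KO minus control, had a median of -4.65 points over 88632 regions, and 70.0% were negative. This measure depends on where a region starts. The median was 3.42 for control percentiles 0 to 20, then -6.59 for 20 to 40, -10.2 for 40 to 60, -7.19 for 60 to 80 and -2.13 for 80 to 100. Of 4737 genes with 5 or more shared regions, 291 had a median change 10 points or more below that of all shared regions, a share of 6.14%, and 97 had one 10 points or more above, a share of 2.05%. The split depends on the scale. Ranking the scores among shared regions alone moved the median of all regions to 0.676 and gave 145 lower and 241 higher genes, lists of equal size gave 135 and 206, and subtracting the median change of each score class first gave 168 and 168. For the genes with the lowest and highest medians the value after that subtraction, the centered change, is given as well.

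SLC39A10, a zinc importer, had a median change of -23.9 over 8 shared regions, 6 of them lower, with a centered change of -13.8. TAB3, an adaptor of the TAK1 kinase in NF-kB signaling, had -23.9, with 8 of 8 lower and a centered change of -14.1. VIT, an extracellular matrix protein, had -23.2, with 8 of 8 lower and a centered change of -15.0. PSG5, a pregnancy-specific glycoprotein, had no region absent and 8 of 8 shared regions lower, with a median of -22.5 and a centered change of -13.6. PSG5 sits among near-identical paralogs, so that reads could be split between copies. Its regions went from percentile 42.6 to 17.3, 61.1 to 39.2, 63.6 to 43.8, 82.2 to 71.3, 49.6 to 13.01, 65.6 to 65.2, 25.5 to 2.35 and 66.6 to 16.1. ADGRL4, an adhesion G protein-coupled receptor of endothelium, had -22.3, with 7 of 8 lower and a centered change of -18.3. Within 10 kb its median differed by -0.205 points from that of all shared regions. TIAM1, an exchange factor that activates Rac, had -22.0, with 8 of 8 lower, a centered change of -14.9 and a further 7 of 15 control regions absent with 3.97 expected. With the upper 50% of each list the SLC39A10 median stood 3.98 points above that of all shared regions, and the TAB3 median differed from it by -1.94 points and the PSG5 median by -6.51. TAB3 lies on chromosome X, where the median change of all assigned shared regions was -7.37.

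At the other end BPIFB1, a secreted antimicrobial protein of airway and mucosal epithelium, had a median change of 12.7, with 7 of 8 shared regions higher and a centered change of 17.0. The BPIFB1 start-site region went from percentile 45.1 to 54.0. GRID1, a glutamate receptor subunit, had 11.4, TRIB1, a pseudokinase that directs protein degradation, 8.52, CRTC1, a coactivator of CREB, 8.15, IGSF9B, an inhibitory synapse adhesion molecule, 7.81, and CALML3, an epithelial calmodulin-like protein, 7.46. Their centered changes were 9.85, 12.2, 17.6, 7.54 and 17.9. GRID1 lies on chromosome 10, where the median change of all assigned shared regions was -1.24, and the part of the chromosome was not tested. With the upper 50% of each list the GRID1 and TRIB1 medians were 1.98 and 2.65 points above that of all shared regions, against 16.0 and 13.2 with all regions. In each of these 5 genes 1 to 3 shared regions were lower and the rest higher.

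**Figure D3:**
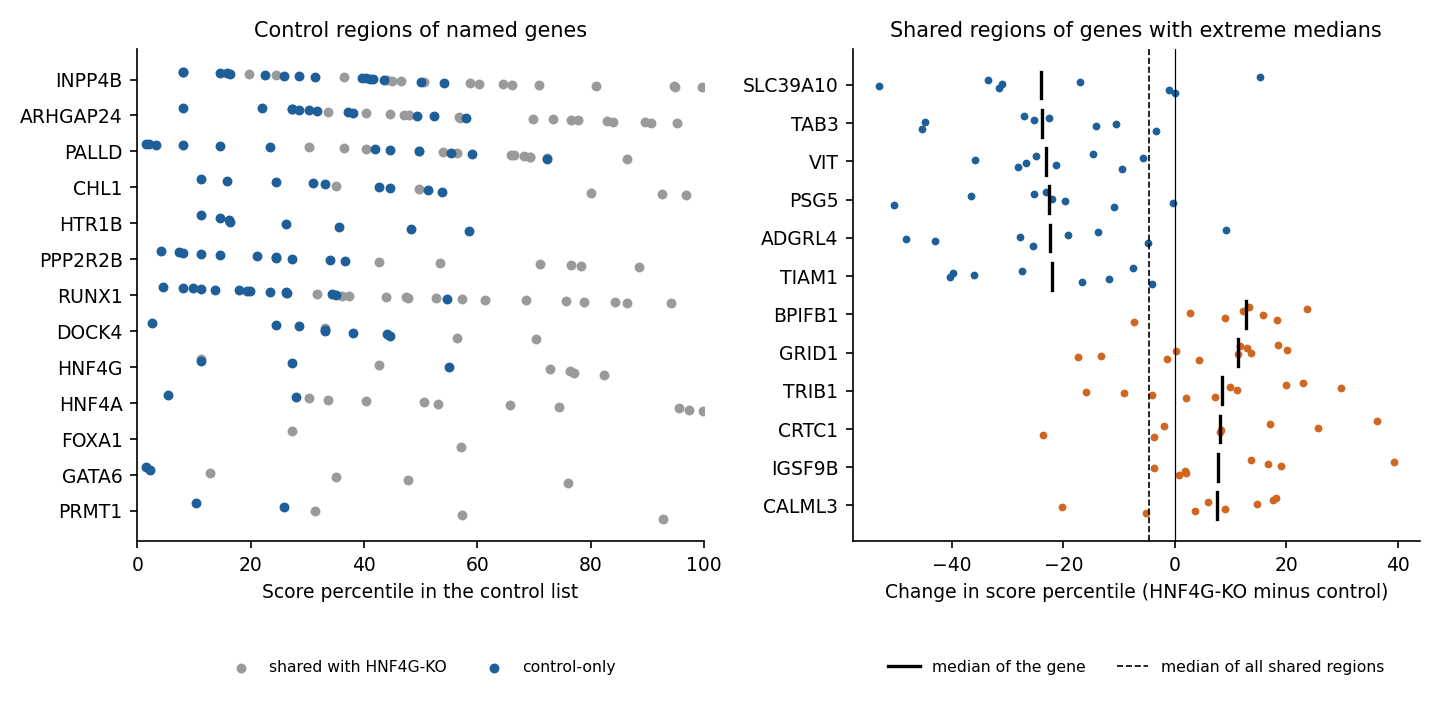
Left, score percentile in the control list of every control region of 13 named genes, blue where the region was absent from the HNF4G-KO list and grey where it was shared. Right, change in score percentile of each shared region for the 6 genes with the lowest (blue) and the 6 with the highest (orange) medians, with black bars for gene medians and a dashed line for the median of all shared regions, -4.65. All 8 HTR1B points are blue, and all 8 PSG5 points lie below 0.

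The change of a gene went with that of its surroundings. Over 4719 genes with 5 or more shared regions and 50 or more other regions within 2.5 Mb, Pearson's r between the gene's median change and that of the other regions was 0.332 and Spearman's rank correlation 0.330. With centered changes r was 0.341. Genes share neighbors and both lists, so this is a description across genes. Among the 1180 genes with the lowest surroundings, -18.2 to -5.97 points, the median gene change was -6.47 and 145 genes lay 10 points or more below and 9 above the median of all shared regions. Among the 1180 genes with the highest surroundings it was -2.01, with 26 below and 39 above. Chromosome 4 had the most control-only regions for their scores, 912 of 3083 at a ratio of 1.24, a median change of -8.14 and 0.588 times the expected KO-only regions. Chromosome 10 had the fewest, 562 of 3412 at a ratio of 0.697, a median change of -1.24 and 1.47 times the expected KO-only regions. Chromosome X had a ratio of 1.15.

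**Figure D4:**
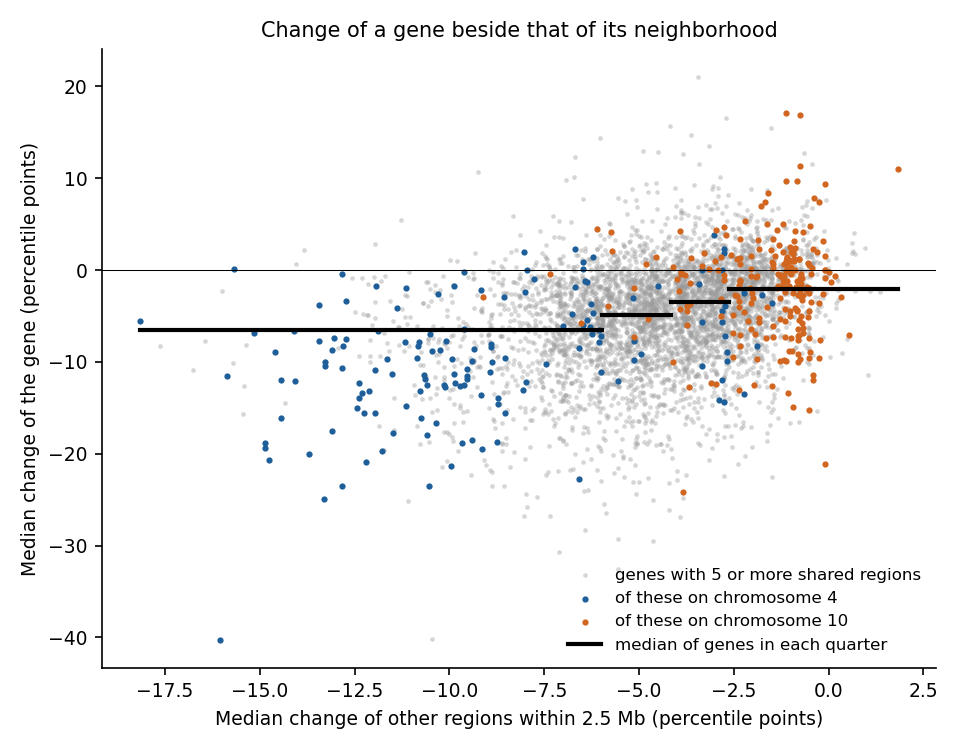
Median change in score percentile of each gene (vertical axis, percentile points) against that of the other regions within 2.5 Mb of its start site (horizontal axis, percentile points). Blue points are genes on chromosome 4, orange points genes on chromosome 10, and black bars the median gene in each of 4 groups of near-equal size by surroundings, from -6.47 on the left to -2.01 on the right.

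The genes were then read by function in 35 lists, for which 1207 of 1208 genes were found. The lists were written from general knowledge but with earlier results of these data known, so a list may hold genes already seen to stand out. A share is compared with the 22.4% of all assigned control regions and with the number expected from scores. Of the 35 lists 10 had more control-only regions than expected and 25 had fewer. Against the ratio of 0.946 of all assigned control regions 14 lists were higher and 21 lower. The expected share lay outside the Wilson interval of the observed one for 3 lists, above it for nuclear receptors and the Wnt pathway and below it for neurotransmitter receptors and ion channels. This comparison allows neither for the number of lists, some of which would lie outside by counting error alone, nor for the ratio of 0.946 of all assigned control regions. Adding chromosome to the expectation left all 35 ratios within their counting intervals, as did counting regions within 500 bp as shared.

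Among genes of endodermal identity, 51 of 197 control regions were control-only (25.9%, 20.3 to 32.4), with 53.1 expected, and 21 of the 28 genes had at least 1, against 55.3% of all genes, a share that follows the number of regions per gene. TCF7L2, the effector of Wnt signaling, had 6 of 18 with 6.48 expected, GATA4 4 of 8 with 2.64 expected and ONECUT3 4 of 10 with 4.52 expected. None of the 15 genes of this list with 5 or more shared regions had a median change 10 points from that of all regions. Over all such genes 6.14% lay that far below and 2.05% that far above, so among 15 genes few would be looked for. Nuclear receptors had 47 of 248 (18.95%, 14.6 to 24.3), fewer than the 60.8 expected. RARB had 5 of 17, RXRA, the shared partner of many nuclear receptors, 5 of 23 and NR3C1, the glucocorticoid receptor, 4 of 11. RXRA also had 3 KO-only regions of 21, with 1.30 expected. Cofactors and PRMT1 relatives had 43 of 161 with 41.8 expected. Within it CREBBP, a histone acetyltransferase, had 5 of 11 with 4.55 expected and a median change of -16.6 (centered -10.9). Subunits of the SWI/SNF chromatin remodeler had 24 of 131, 0.765 times the expected number.

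Lists of functions tied to HNF4 factors lay on either side of expectation. For lipoprotein and fatty acid transport 35 of 183 regions were control-only (19.1%, 14.1 to 25.4), with 43.0 expected. CD36 had 5 of 14 with 3.37 expected and a median change of -11.4 (centered -0.540), and SCARB1 had 4 of 14 with 3.74 expected and -8.96 (centered -2.42). DGAT2, which makes triglycerides, had 3 of 9 and -0.26. For bile acid and drug metabolism the numbers were 39 of 153 with 44.3 expected. The members with the most control-only regions were transporters. SLCO2B1 had 7 of 12 with 4.69 expected and a median change of -18.1 (centered -9.28), ABCB1, the multidrug efflux pump, 4 of 7 with 1.92 expected and -31.8 (centered -21.0), and ABCG2, another efflux pump, 3 of 7 with 2.12 expected and -11.4 (centered -9.11). The brush border and gut absorption list had 50 of 188 (26.6%, 20.8 to 33.3), with 42.8 expected. EZR, which links microvillar actin to the membrane, had 4 of 15 with 3.59 expected and 3 KO-only regions, SLC40A1, the iron exporter, 4 of 9 with 1.97 expected and CDHR2, a microvillar cadherin, 3 of 9 with 2.78 expected.

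Subtype genes were close to or below expectation. Classical subtype genes, the epithelial class of pancreatic cancer, had 36 of 171 control-only (21.1%, 15.6 to 27.8), with 38.6 expected. Basal subtype genes, the squamous-like class, had 33 of 177 (18.6%, 13.6 to 25.03), with 40.4 expected, and 13 KO-only regions with 9.58 expected. Both intervals hold the 22.4% of all regions. Named classical members were ATP10B with 4 of 14, REG4, a secreted lectin of gut epithelium, with 4 of 7 and 2.09 expected, and ANXA10 with 3 of 5. Basal members were COL17A1, a hemidesmosome collagen, with 5 of 11 and DCBLD2 with 4 of 10. ANXA8, another basal member, had no control-only region and 3 KO-only regions of 8, with 0.90 expected. Mucins and secretory products had 39 of 204, 0.796 times expected. Within them MUC4 had 4 of 13 with 5.50 expected, and MUC5AC, the main gastric gel-forming mucin, 1 of 4 control-only and 2 of 5 KO-only. The 12 ductal epithelium markers had 11 of 102 (10.8%, 6.13 to 18.3), with 18.5 expected.

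Junction and matrix genes mostly stood near expectation. Tight and adherens junctions had 77 of 317 control-only with 81.2 expected. CTNNA1, the alpha-catenin that ties cadherins to actin, had the most, 13 of 29 with 12.7 expected. The scaffold gene TJP1 had 8 of 24 with 5.06 expected and a median change of -9.15. PARD3, a polarity protein, had 5 KO-only regions of 24 with 2.30 expected. The epithelial-mesenchymal transition list had 51 of 179 with 50.8 expected. ITGB1 had 8 of 23, TCF4 7 of 15 with 4.91 expected and CD44 6 of 14. Basement membrane genes and collagens had 72 of 283 with 71.1 expected, and 5 of 29 genes with a start-site region in the control list had none in the HNF4G-KO list, against 3.50% of all such genes. That share is not matched for score, and start-site regions listed in the control only were mostly weak. The control-only numbers were 45 of 193 for integrins, with 48.7 expected, and 47 of 217 for matrix proteases, with 49.8 expected.

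Signaling lists differed in ratio. RAS, MAPK and PI3K signaling had 112 of 380 (29.5%, 25.1 to 34.2), with 102 expected, and INPP4B alone gave 16 of them. INPP5D, a phosphatase that removes the same class of lipids, had 9 of 15 with 7.64 expected, and RPS6KA2, a kinase downstream of ERK, 10 of 26 with 7.89 expected and 4 KO-only regions. Small GTPase regulators had 189 of 672 (28.1%, 24.9 to 31.6), with 172 expected, a median change of -7.01 and a centered median of -1.95. Of its 37 genes with 5 or more shared regions 8 lay 10 points or more below the median of all shared regions and 0 above, against 6.14% and 2.05% of all such genes. Their ratio went from 1.10 to 1.05 with chromosome in the expectation. The list includes ARHGAP24, described above among the genes with the largest excess. The 8 genes were counted on the change before centering, and the list was not recounted without ARHGAP24. ASAP1 had 13 of 43 with 12.2 expected, KALRN, an exchange factor, 11 of 36 with 8.89 expected and ARHGAP26 7 of 41 with 10.3 expected. Receptor tyrosine kinases and ligands had 98 of 400 with 102 expected, among them EGFR with 5 of 25 and IGF1R with 6 of 24, and Hippo pathway genes 61 of 261 with 65.2 expected, FAT1 having 10 of 22 with 6.80 expected. The TGF-beta and BMP pathway had 68 of 336 with 76.8 expected. Within it LTBP1, which tethers latent TGF-beta to the matrix, had 8 of 19 with 4.27 expected, and SMAD3, the signal transducer, 1 of 29 with 5.09 expected. The Wnt pathway had 74 of 328 (22.6%, 18.4 to 27.4), fewer than the 92.0 expected but near the 22.4% of all assigned control regions. The Notch pathway had 31 of 170, 0.787 times expected.

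The highest shares were those of 2 of the lists better known from neurons. Neuronal adhesion and synapse organizers had 90 of 225 control-only (40.0%, 33.8 to 46.5), with 79.0 expected. NTM, a membrane-anchored adhesion molecule, had 14 of 26 with 10.0 expected, MAGI2, a synaptic and junctional scaffold, 8 of 15 with 5.64 expected and TENM2, a teneurin, 8 of 15 with 6.20 expected and a median change of -18.7 (centered -13.1). Neurotransmitter receptors and ion channels had 104 of 293 (35.5%, 30.2 to 41.1), with 87.3 expected. CHRM3, a muscarinic receptor, had 9 of 13 with 6.82 expected, KCNIP4, a potassium channel subunit on chromosome 4, 8 of 11 with 4.00 expected and a median change of -41.2 (centered -34.4), and KCNQ3, a potassium channel, 8 of 21 with 4.11 expected. With chromosome in the expectation KCNIP4 had 5.05 expected. Axon guidance genes, a further neuronal list, had 80 of 326 (24.5%) with 87.9 expected, and the neuron markers 16 of 64 with 16.1 expected, while PLXNA4, an axon guidance receptor, had 7 of 9. Start-site regions were few in both neuronal lists, 14 of 43 adhesion and 19 of 53 receptor and channel genes in the control list. In the HNF4G-KO list the numbers were 12 and 19. Of all 20007 protein-coding genes 14270 had one in the control list.

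Lists of general cell function were at or below expectation, while the interferon and chemokine lists were slightly above it. Oxidative phosphorylation genes had 8 of 82 control-only (9.76%, 5.03 to 18.1), with 11.97 expected, and all 38 genes had a start-site region in both lists. So did all 45 cytosolic ribosomal protein genes, of whose regions 24 of 125 were control-only. Of the 14270 genes with a start-site region in the control list, 13771 had one in both, so presence in both lists was usual. Cell cycle genes had 34 of 173 with 37.2 expected, glycolysis and hypoxia genes 45 of 248 with 53.2 expected, ribosome biogenesis genes and their regulators 27 of 144 with 31.8 expected and p53 targets and cell death genes 52 of 235 with 57.5 expected. Among the last GADD45A, a stress-induced growth arrest gene, had 4 of 10 with 1.77 expected. Circadian and immediate early genes had 57 of 272 with 57.6 expected and the highest median centered change of the 35 lists, 3.79. BMAL1 had 6 of 17 and NPAS2, its alternative partner of CLOCK, 6 of 21 with a median change of -12.0. Interferon and antigen presentation genes had 42 of 198 with 40.2 expected. Chemokines and cytokines had 44 of 180 with 39.9 expected, and 4 of 29 genes with a start-site region in the control list had none in HNF4G-KO, again against 3.50% of all such genes, a share not matched for score. One of these was IL1B, the interleukin-1 beta gene, with 4 of 8 regions control-only, 1.88 expected, and its start-site region at percentile 54.5. Pancreatic cancer drivers had 29 of 120 with 30.8 expected, RNF43, an inhibitor of Wnt receptors, having 3 of 9 with 1.98 expected.

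**Figure D5:**
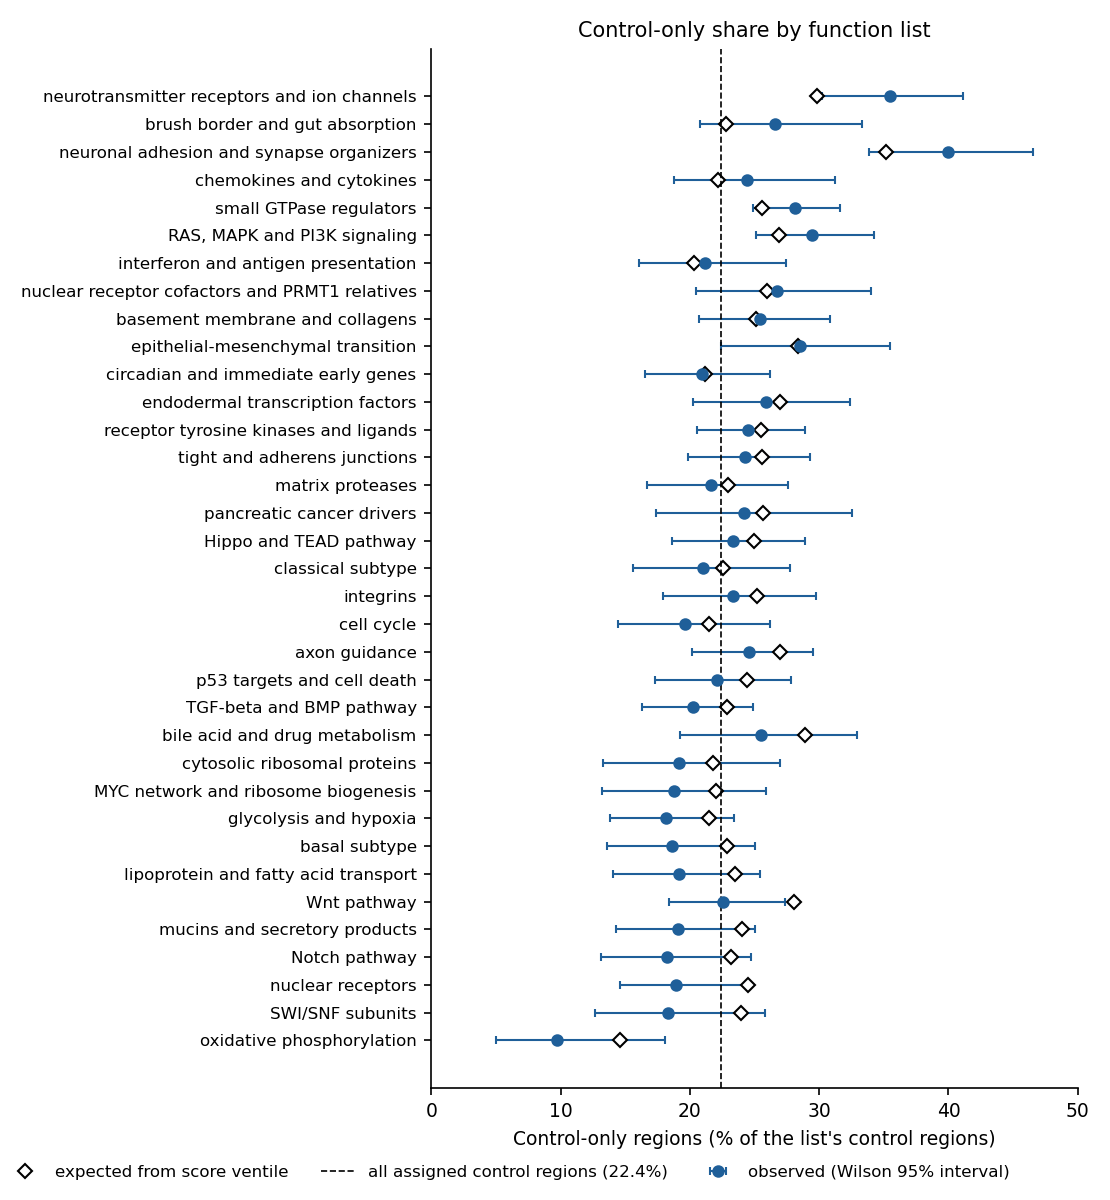
Control-only regions as a percentage of the control regions of each of 35 function lists, ordered by the ratio of observed to expected. Blue points are observed shares with Wilson 95% intervals, diamonds the shares expected from scores, and the dashed line the 22.4% of all assigned regions. Both neuronal lists lie farthest to the right, at 35.5% and 40.0%, with expected shares that are also high, and oxidative phosphorylation lies farthest to the left at 9.76%.

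Families of genes whose symbols share a stem were compared in the same way, 143 families in all with at least 10 genes and 60 control regions. The highest ratios were those of the DNAJB co-chaperones, with 12 of 63 control-only and 8.39 expected, the aquaporins (AQP), with 27 of 66 and 20.4 expected, the tubulin-modifying TTLL enzymes, with 19 of 69 and 14.8 expected, the HSD steroid dehydrogenases, with 25 of 76 and a ratio of 1.25, and the PTPN phosphatases, with 29 of 100 and 23.7 expected. The lowest were the CCL chemokines, with 8 of 63 and 13.97 expected, the SERPINB protease inhibitors, with 9 of 61 and 13.8 expected, the GTF general transcription factors, with 17 of 106 and 25.2 expected, the CAPN calpains, with 13 of 80 and 19.2 expected, and the WNT ligands, with 26 of 125 and 37.8 expected. Families at both ends held few regions, and with 143 ranked the ends are a description only.

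The HNF4 consensus was then counted by gene. It occurred in 1269 assigned control regions of 1191 genes, in 2 or more regions at 69 genes and in 3 or more at 8. Of these regions 240 were control-only (18.9%, 16.9 to 21.2), with 214 expected, a ratio of 1.12 against 0.944 for regions without it and 0.904 for the 450 regions with the sequence written backwards, which has the same composition. The expected share of the regions with the consensus lay just inside the lower end of their interval. Regions with the consensus were wider, with a median of 638 bp against 483 bp without it, and the part of width was not tested. The 1029 shared regions with the consensus had a median change of -5.88, against -3.75 without it and -3.39 with the backward sequence. These medians were not centered by score class, and the sets differ in their starting scores, so the part of the starting score is not known. Among KO-only assigned regions 16 of 4271, or 0.375%, held the consensus, against 1.33% of control-only, 1.65% of shared and 1.57% of all assigned control regions. At the level of the gene the difference was small. Genes with 1 to 4 control regions had a ratio of 1.04 with the consensus and 0.946 without, genes with 5 to 9 had 0.976 and 0.946, and genes with 10 or more had 0.957 and 0.936. Among the 8 genes with the largest control-only excess, ARHGAP24 and PPP2R2B had a control-only region with the consensus, shown above.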

How the data were processed

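ATAC-seq of HPAF-II cells followed the Omni-ATAC protocol with paired-end sequencing. The authors deposited 1 region list per group, standing for 4 replicates, with a score for each region. Its scale, the peak calling settings and how replicates were combined are not given in the sources used here. The submitters' processing notes name Bowtie2 2.2.6, MACS2 2.1.1.20160309 and DiffBind, and hg38 among the builds. The deposited score was used only as a percentile within its own list. A deeper or stronger library yields more weak regions, so region counts mix accessibility with calling power, and no count test could be run.

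Regions were assigned to the nearest of 78505 protein-coding transcript start sites of GENCODE v44 within 50 kb. Shared regions overlapped by at least 1 bp and were paired by longest overlap. Expected numbers used 20 score classes. Families needed at least 10 genes and 60 control regions. Scripts used Python 3.11.15, pandas 2.3.3, numpy 2.4.6 and pysam 0.24.0 and were tested on simulated lists. Genes named were the 8 with the largest control-only and the 6 with the largest KO-only excess, the 6 with the lowest and the 6 with the highest median change among those with 8 or more shared regions, the 4 highest start-site regions in 1 list in each direction, HNF4G, HNF4A, FOXA1, GATA6 and PRMT1, and, for each function list, the 3 members with the most control-only regions and the 1 with the most KO-only regions. Others are marked in the text. The genes, lists and rules were chosen with earlier results of these data known. The mouse lists of the series were not used here. MPP5 was matched as PALS1. Some genes that the rule names are not reported here.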

Additional observations from a re-analysis of the deposited data

How the results depend on the processing

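No paired analysis was possible because each group has 1 list, although the labels number 4 replicates in each, and no replicate could be left out in turn for the same reason. Of 57 comparisons of the gene counts with an alternative, 37 stayed within 1.5 times the count reported. Genes with a control-only region numbered 5765 with the upper 50% of each list by score, 6089 with lists of equal size, 5693 with start sites within 10 kb and 14594 with every gene within 50 kb, and genes with a KO-only region 1434, 5629, 1704 and 6308. Genes with all control regions absent numbered 45 with lists of equal size. Genes with a median change 10 points or more below that of all shared regions numbered 164 with the upper 50%, 135 with lists of equal size, 61 within 10 kb, 145 ranked among shared regions alone and 168 with the change centered within score classes. Genes 10 points or more above numbered 206 with lists of equal size, 53 within 10 kb, 241 ranked among shared regions alone, 63 with regions paired 1 to 1 and 168 centered. The centering was chosen after seeing the data. Genes with a start-site region in the HNF4G-KO list only numbered 272 with the upper 50%. With the upper 50% the control-only excess was -0.983 for PPP2R2B and -0.843 for RUNX1, the KO-only excess was -0.0557 for FBRSL1, -0.0687 for TTC7B, -0.244 for CPNE5, -0.0241 for B3GALNT2 and -0.368 for ZNF516, and SLC39A10 stood 3.98 points above all shared regions. Within 10 kb the excess was -0.874 for RUNX1 and -0.00865 for B3GALNT2. The cause was not tested for any of these. Of 283 values of named genes under alternatives 10 reversed, 14 kept their direction but moved beyond their counting interval or the spread among the gene's regions, and 259 stayed within it, which for few regions is wide. Of 35 function lists, 2 crossed a ratio of 1 with chromosome in the expectation and 3 with regions within 500 bp counted as shared. Unknown depth limits what absence from a list means.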
